A study of Mus musculus with 8 samples.

Results

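The 36 genes described here mark macrophages and other myeloid cells, or supply and drive them, and were taken by gene symbol from the 20245 entries of the kidney expression files. They comprise macrophage identity genes and the CSF1 receptor, Fc receptors with their signalling adaptors, pattern recognition and scavenger receptors, lysosomal and lipid handling genes, subunits of the phagocyte NADPH oxidase, genes of all leukocytes, a pair of transcription factors and the CSF1 receptor ligands. All 36 symbols were found in every file. RNA was sequenced from whole kidneys of C57BL/6 mice in 8 libraries, 2 in each of 4 groups. PKD_FP kidneys were from mice labelled as having autosomal dominant polycystic kidney disease (PKD) and given FP, which the series' design text calls flavopiridol, and PKD_DMSO kidneys were from PKD mice given the vehicle DMSO. WT_FP and WT_DMSO kidneys were from wild-type mice given the same agents. Flavopiridol inhibits cyclin-dependent kinases, among them CDK9, the kinase of the transcription elongation factor P-TEFb that the series is about. The labels and notes used here do not give the mutated gene, any Cre driver, the dose, the duration or the age. They do not say whether replicates came from separate animals either, so a p-value here measures the spread between libraries, which may be technical.

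Macrophages live in the interstitium of the healthy kidney, where they take up debris and immune complexes, and they gather around cysts in polycystic disease. Their survival and growth depend on CSF1R, a receptor tyrosine kinase with 2 ligands, CSF1 and IL-34, which in mouse kidney are made largely by tubule and stromal cells. Activating Fc receptors and receptors such as TREM2 have no signalling tail and borrow the ITAM motif of an adaptor, the Fc receptor gamma chain (Fcer1g) or DAP12 (Tyrobp). The ETS factor PU.1, encoded by Spi1, is required for the lineage and binds a purine-rich motif in many of its genes. In RNA of whole tissue, more cells of a type and more RNA per cell cannot be told apart.

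Promoters of 4 of the 6 members that carry the core of the PU.1 motif are shown as examples, chosen after their values were seen. Each is the 250 bases before the annotated start, read 5′ to 3′ on the strand of the gene, from RefSeq on GRCm38.p6, and capitals mark the match. The match is on the opposite strand in all 4, so AGGAAGT appears as ACTTCCT, and in Fcgr4 the longer GAGGAAGT appears as ACTTCCTC.
Lyz2, chr10:117282273-117282522, minus strand: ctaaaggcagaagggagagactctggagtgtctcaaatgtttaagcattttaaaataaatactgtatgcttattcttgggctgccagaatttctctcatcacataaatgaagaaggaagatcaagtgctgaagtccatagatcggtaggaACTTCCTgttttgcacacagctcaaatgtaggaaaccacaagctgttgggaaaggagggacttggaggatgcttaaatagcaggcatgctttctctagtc
Fcgr1, chr3:96293970-96294219, minus strand: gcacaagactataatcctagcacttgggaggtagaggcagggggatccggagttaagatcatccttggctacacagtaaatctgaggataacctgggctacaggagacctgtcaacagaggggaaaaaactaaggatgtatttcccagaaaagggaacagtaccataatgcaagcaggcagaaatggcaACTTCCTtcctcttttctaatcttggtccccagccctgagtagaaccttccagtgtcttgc
Fcgr4, chr1:171018676-171018925, plus strand: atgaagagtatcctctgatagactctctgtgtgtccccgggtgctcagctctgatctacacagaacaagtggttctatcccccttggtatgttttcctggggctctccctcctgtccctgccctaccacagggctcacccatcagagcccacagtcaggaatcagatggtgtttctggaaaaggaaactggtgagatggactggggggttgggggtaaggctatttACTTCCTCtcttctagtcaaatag
Mrc1, chr2:14229164-14229413, plus strand: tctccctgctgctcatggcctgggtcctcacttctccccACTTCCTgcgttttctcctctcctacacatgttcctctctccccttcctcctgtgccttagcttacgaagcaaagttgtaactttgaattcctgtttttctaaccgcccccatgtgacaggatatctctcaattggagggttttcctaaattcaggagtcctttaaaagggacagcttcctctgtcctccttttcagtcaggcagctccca

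Counted from the gene start, the match began at base -100 in Lyz2, -61 in Fcgr1, -24 in Fcgr4 and -211 in Mrc1. The motif search covered both strands of the 250 bases, with AGGAAGT and with GAGGAAGT, which contains it. Of the 36 members, 27 matched the RefSeq promoter table, with 37 promoters among them. AGGAAGT was found in 7 of those 37 promoters (18.92%), belonging to C5ar1, Fcgr1, Fcgr4, Lyz2, Mrc1 and Ptprc, and in 7.69% of all 32851 promoters in the table. GAGGAAGT was found in 1 of the 37 (2.7%), that of Fcgr4, and in 2.44% of all promoters. These are matches of letters and not measured binding sites, and no test was applied to them.

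Values are FPKM, a read level scaled by transcript length and library size, so that levels of different genes may be set beside each other. Log2 fold changes are differences of group means of log2(FPKM + 1), which understates changes of genes near 1 FPKM. They were tested with limma over the 14391 genes that reached 1 FPKM in at least 2 libraries, with two-sided p-values adjusted by Benjamini-Hochberg, and a gene is called at an adjusted p under 0.05. The sum of FPKM per library ranged from 486060 to 572823, and 12790 to 13813 genes reached 1 FPKM. The number of reads is unknown, so counting error cannot be given. Proximal tubule markers were present in every library, with a summed level of 814 to 1317 FPKM in PKD libraries and 3016 to 6230 FPKM in WT libraries. WT_FP replicate 2 stood apart in adipocyte markers, whose summed level was 1924 FPKM there and 118 to 399 FPKM in the other libraries.

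Myeloid genes were higher in PKD than in WT kidneys across nearly the whole set. In 33 of 36 members, all 4 PKD libraries lay above all 4 WT libraries, a separation that 22% of all genes tested showed in this direction. Fcgr2b, Fcgr4 and Lgmn were the exceptions. Under vehicle, 30 of the 35 members that passed the low-value filter rose in PKD_DMSO relative to WT_DMSO kidneys and 0 fell. Of all genes tested, 14.8% rose and 7.52% fell in that comparison. The members were chosen with earlier results of these data known. Shares of all genes, here and below, are therefore set beside them as description and not as independent support. Both PKD_DMSO libraries lay above both WT_DMSO libraries in 36 of 36 members (41.2% of all genes), and below them in 0 (24.5%). At an unadjusted p under 0.05, 33 of 35 members were higher and 0 lower, against 24.9% and 13.1% of all genes. The median log2 fold change of the 35 members was 2.04, against 0.12 for all genes tested. The filter let 10 members through only with the help of a PKD library, so for those a difference was partly built in. They were Adgre1, Fcgr1, Trem2, Cd163, Msr1, Ncf4, Gpnmb, Clec7a, Ms4a7 and C5ar1. Among the 25 members that passed on WT libraries alone 20 rose. Neither here nor below was a share formed of all genes that passed in that way. Without the filter 31 of all 36 rose, and 1859 of 20240 genes did. Siglec1 was the added gene (limma adjusted p = 0.048), with 1.48 FPKM in PKD_DMSO replicate 2 and under 1 FPKM in every other library.

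**Figure D1:**
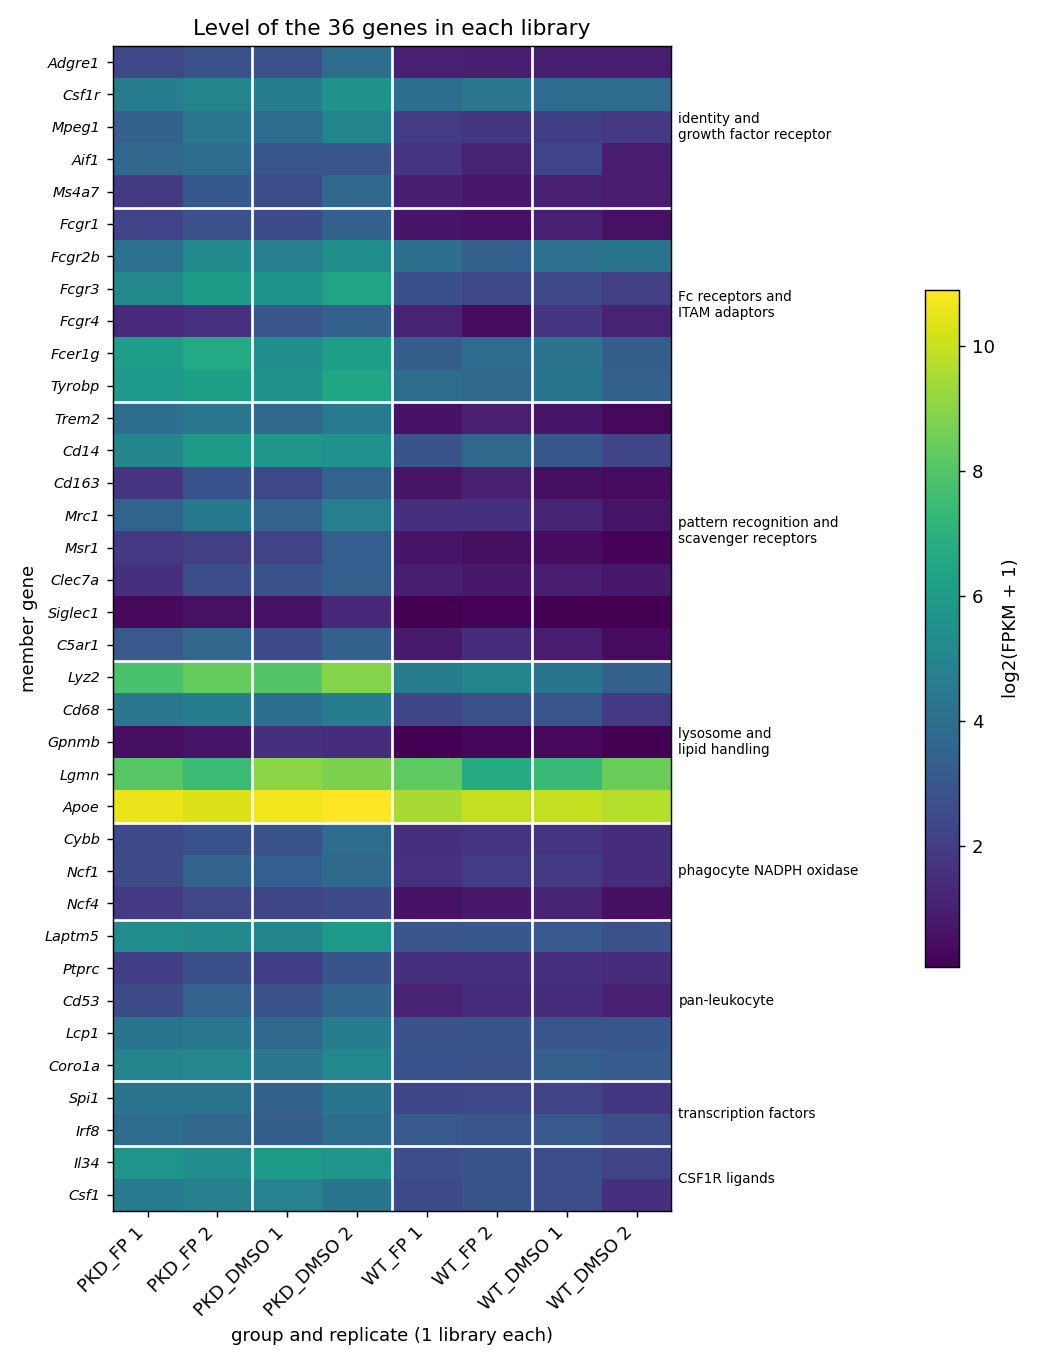
Level of each of the 36 genes, as log2(FPKM + 1) in colour, in each of the 8 libraries, with genes grouped by role down the page and libraries ordered PKD_FP, PKD_DMSO, WT_FP and WT_DMSO. Most rows are brighter in the 4 PKD libraries than in the 4 WT libraries, and PKD_DMSO replicate 2 is the brightest PKD library for 27 genes.

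The identity genes rose together, with 4 of 5 called under vehicle and a median log2 fold change of 2.18. Adgre1, which encodes the macrophage surface protein F4/80, had 4.12 and 5.85 FPKM in PKD_FP kidneys, 5.83 and 14.3 in PKD_DMSO kidneys, 1.0 and 0.95 in WT_FP kidneys, and 0.93 and 0.83 in WT_DMSO kidneys. All PKD libraries were above all WT libraries, and PKD_DMSO replicate 2 held more than any other. Its log2 fold change was 2.44 ± 0.37 (SE; limma, Benjamini-Hochberg adjusted p = 0.00791) for PKD_DMSO over WT_DMSO and 1.58 ± 0.37 (adjusted p = 0.0372) for PKD_FP over WT_FP. Mpeg1, the pore-forming perforin-2 of macrophages, rose by 2.45 ± 0.43 in PKD_DMSO over WT_DMSO, and Ms4a7, a membrane protein of macrophages, by 2.18 ± 0.45 (limma adjusted p = 0.0123 and 0.0192). Aif1, which encodes the actin-binding protein IBA1, was the identity gene that missed the call under vehicle. It had 11.4 and 14.4 FPKM in PKD_FP kidneys, 6.75 and 6.65 in PKD_DMSO kidneys, 2.36 and 1.16 in WT_FP kidneys, and 3.71 and 0.92 in WT_DMSO kidneys. The genotypes were separated, but the WT_DMSO replicates lay far apart, and the log2 fold change of 1.36 ± 0.43 under vehicle had an adjusted p of 0.0628 by limma. For PKD_FP over WT_FP Aif1 rose by 2.36 ± 0.43 (limma adjusted p = 0.0198), and the test of the difference between the genotype effects did not pass (interaction 1.01 ± 0.60, adjusted p = 0.581).

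Csf1r changed less than its ligands. It had 23.7 and 30.0 FPKM in PKD_FP kidneys, 24.4 and 46.6 in PKD_DMSO kidneys, 14.7 and 19.7 in WT_FP kidneys, and 13.3 and 13.4 in WT_DMSO kidneys. The groups did not overlap between genotypes, yet the gap between the PKD_DMSO replicates was larger than the distance from the lower of them to WT_DMSO. Csf1r rose by 1.28 ± 0.31 in PKD_DMSO over WT_DMSO (limma adjusted p = 0.0295), a call that was lost when only those groups were fitted and when PKD_DMSO replicate 2 or either WT_DMSO replicate was left out. For PKD_FP over WT_FP its log2 fold change was 0.62 ± 0.31 (limma adjusted p = 0.221). Of the 50-base stretches of its longest transcript, 17.71% also occur in Hmgxb3, which lay between 4.40 and 7.95 FPKM in all libraries, so part of the Csf1r level could belong to that gene.

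Il34 had 51.6 and 40.0 FPKM in PKD_FP kidneys, 61.7 and 53.6 in PKD_DMSO kidneys, 5.16 and 6.36 in WT_FP kidneys, and 5.16 and 3.84 in WT_DMSO kidneys. All PKD libraries were far above all WT libraries, and replicates lay close together. Il34 rose by 3.42 ± 0.20 in PKD_DMSO over WT_DMSO and by 2.79 ± 0.20 in PKD_FP over WT_FP (limma adjusted p = 0.00125 and 0.00305). Csf1 had 22.1 and 26.5 FPKM in PKD_FP kidneys, 27.7 and 18.2 in PKD_DMSO kidneys, 4.71 and 6.01 in WT_FP kidneys, and 5.18 and 1.85 in WT_DMSO kidneys. The genotypes were again separated, with PKD_DMSO replicate 1 highest. Csf1 rose by 2.48 ± 0.38 in PKD_DMSO over WT_DMSO and by 2.0 ± 0.38 in PKD_FP over WT_FP (limma adjusted p = 0.00807 and 0.0217). The ratio of Il34 to Csf1r FPKM was 2.17 and 1.33 in PKD_FP, 2.53 and 1.15 in PKD_DMSO, 0.350 and 0.323 in WT_FP, and 0.389 and 0.287 in WT_DMSO libraries. Transcript of Il34 thus exceeded that of Csf1r in all 4 PKD libraries and in 0 of the 4 WT libraries. This did not hold for Csf1. Its ratio to Csf1r was 0.932 and 0.883 in PKD_FP, 1.14 and 0.391 in PKD_DMSO, 0.320 and 0.305 in WT_FP, and 0.390 and 0.138 in WT_DMSO libraries. Both ligand genes were lower in PKD_DMSO replicate 2 than in replicate 1, while Csf1r was higher in replicate 2.

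**Figure D2:**
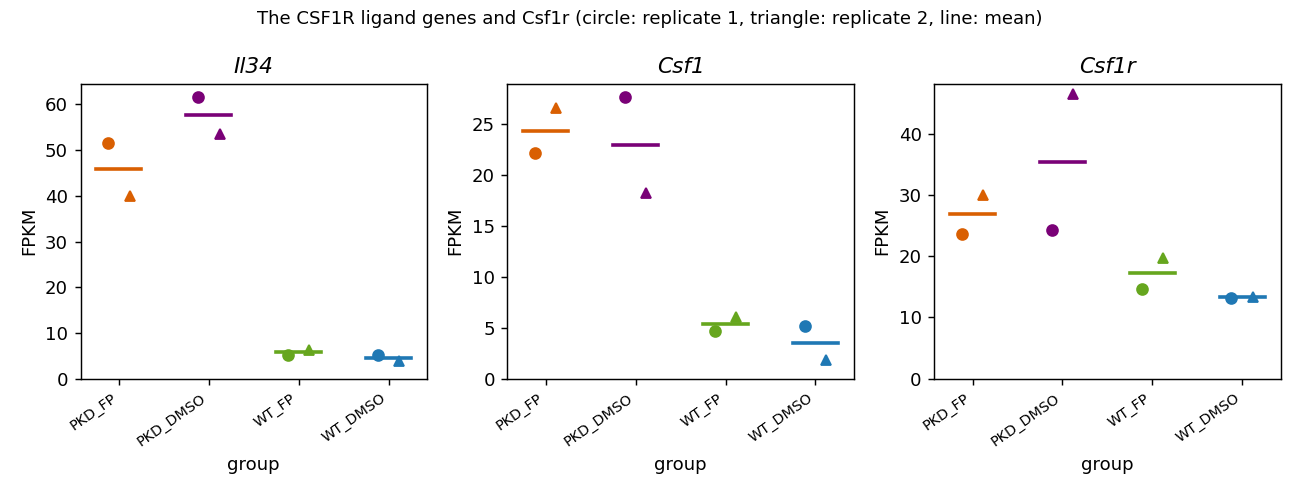
FPKM of Il34, Csf1 and Csf1r in the 8 libraries, as circles for replicate 1, triangles for replicate 2 and a line for the group mean, with groups ordered PKD_FP, PKD_DMSO, WT_FP and WT_DMSO. Il34 lies between 40.0 and 61.7 FPKM in PKD libraries and between 3.84 and 6.36 FPKM in WT libraries, and the spread of Csf1r is widest in PKD_DMSO.

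Genes of the IgG Fc receptors lie in a cluster on chromosome 1. Fcgr2b, Fcgr4, Fcgr3 and Fcer1g follow each other there between bases 170960558 and 171234349 (GRCm38.p6), while Fcgr1 is on chromosome 3 and Tyrobp on chromosome 7. Of these 6 genes 5 rose under vehicle, and members of the cluster differed widely in size. Fcgr3, the activating low-affinity receptor of mouse phagocytes, had 34.6 and 60.6 FPKM in PKD_FP kidneys, 49.6 and 82.8 in PKD_DMSO kidneys, 5.45 and 4.34 in WT_FP kidneys, and 4.35 and 3.26 in WT_DMSO kidneys. The PKD libraries held several times the WT level throughout. Fcgr3 rose by 3.77 ± 0.34 in PKD_DMSO over WT_DMSO and by 3.0 ± 0.34 in PKD_FP over WT_FP (limma adjusted p = 0.00201 and 0.00664). Fcgr2b, the inhibitory receptor, which B cells and liver endothelium also make, had 16.8 and 36.7 FPKM in PKD_FP kidneys, 25.3 and 42.2 in PKD_DMSO kidneys, 15.5 and 9.29 in WT_FP kidneys, and 16.0 and 18.2 in WT_DMSO kidneys. PKD_FP replicate 1 fell within the WT range, so the genotypes overlapped. Its log2 fold change was 0.90 ± 0.42 for PKD_DMSO over WT_DMSO and 0.99 ± 0.42 for PKD_FP over WT_FP (limma adjusted p = 0.164 and 0.160). Fcgr3 and Fcgr2b share sequence, 12.79% of the 50-base stretches of Fcgr3 occurring in Fcgr2b, and the notes used here do not say how such reads were assigned.

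Fcgr4, an activating receptor for IgG2 subclasses, had 1.62 and 2.07 FPKM in PKD_FP kidneys, 6.72 and 9.42 in PKD_DMSO kidneys, 1.16 and 0.34 in WT_FP kidneys, and 2.39 and 1.12 in WT_DMSO kidneys. Only the PKD_DMSO libraries stood clear of the rest, since both PKD_FP values lay below the higher WT_DMSO value. Fcgr4 rose by 1.74 ± 0.33 in PKD_DMSO over WT_DMSO (limma adjusted p = 0.0156), and its log2 fold change for PKD_FP over WT_FP was 0.74 ± 0.33 (adjusted p = 0.187). Fcgr1, the high-affinity receptor, rose by 2.18 ± 0.34 in PKD_DMSO over WT_DMSO and by 1.86 ± 0.34 in PKD_FP over WT_FP (limma adjusted p = 0.00839 and 0.0199). Fcer1g, the shared signalling chain of these receptors, had 70.0 and 102 FPKM in PKD_FP kidneys, 42.2 and 68.9 in PKD_DMSO kidneys, 8.40 and 13.4 in WT_FP kidneys, and 17.9 and 8.5 in WT_DMSO kidneys. Here the PKD_FP libraries were the highest of all. Fcer1g rose by 2.04 ± 0.41 in PKD_DMSO over WT_DMSO and by 2.88 ± 0.41 in PKD_FP over WT_FP (limma adjusted p = 0.0181 and 0.0116). Tyrobp had 58.4 and 71.5 FPKM in PKD_FP kidneys, 48.8 and 86.3 in PKD_DMSO kidneys, 14.0 and 12.3 in WT_FP kidneys, and 18.2 and 9.47 in WT_DMSO kidneys. The 4 PKD libraries were all above the WT libraries, and the order of PKD_FP and PKD_DMSO depended on the replicate. Tyrobp rose by 2.22 ± 0.36 in both PKD_DMSO over WT_DMSO and PKD_FP over WT_FP (limma adjusted p = 0.00954 and 0.0150).

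All 7 pattern recognition and scavenger receptors that passed the filter rose under vehicle. Of these, Trem2, Cd163, Msr1, Clec7a and C5ar1 passed it only with the help of a PKD library, so their rise was partly built in. Trem2, the lipid-sensing receptor that signals through DAP12, had 14.8 and 19.0 FPKM in PKD_FP kidneys, 11.9 and 21.7 in PKD_DMSO kidneys, 0.48 and 0.99 in WT_FP kidneys, and 0.66 and 0.22 in WT_DMSO kidneys. No WT library reached 1 FPKM, and the lowest PKD library was at 11.9 FPKM. Trem2 rose by 3.59 ± 0.33 in PKD_DMSO over WT_DMSO and by 3.38 ± 0.33 in PKD_FP over WT_FP (limma adjusted p = 0.00208 and 0.00492). Mrc1, the mannose receptor CD206, had 10.8 and 20.6 FPKM in PKD_FP kidneys, 9.90 and 25.2 in PKD_DMSO kidneys, 1.89 and 1.99 in WT_FP kidneys, and 1.27 and 0.57 in WT_DMSO kidneys. Replicate 2 held 1.91 times as much as replicate 1 in PKD_FP and 2.54 times as much in PKD_DMSO, and all were above WT. Mrc1 rose by 3.16 ± 0.46 in PKD_DMSO over WT_DMSO and by 2.44 ± 0.46 in PKD_FP over WT_FP (limma adjusted p = 0.00721 and 0.0217). Cd163, the haemoglobin scavenger receptor, had 2.29 and 6.00 FPKM in PKD_FP kidneys, 4.21 and 10.48 in PKD_DMSO kidneys, 0.56 and 1.07 in WT_FP kidneys, and 0.39 and 0.31 in WT_DMSO kidneys. It showed the same order of replicates as Mrc1. Cd163 rose by 2.52 ± 0.47 in PKD_DMSO over WT_DMSO (limma adjusted p = 0.0143), and its log2 fold change for PKD_FP over WT_FP was 1.42 ± 0.47 (adjusted p = 0.0934).

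Cd14, the lipopolysaccharide co-receptor, had 31.6 and 61.3 FPKM in PKD_FP kidneys, 54.1 and 45.1 in PKD_DMSO kidneys, 6.22 and 12.02 in WT_FP kidneys, and 7.15 and 4.03 in WT_DMSO kidneys. It was high in all PKD libraries, without the excess of PKD_DMSO replicate 2 that most members had. Cd14 rose by 2.98 ± 0.41 in PKD_DMSO over WT_DMSO and by 2.22 ± 0.41 in PKD_FP over WT_FP (limma adjusted p = 0.00627 and 0.0211). Msr1, the class A scavenger receptor, had 2.63 and 3.35 FPKM in PKD_FP kidneys, 3.85 and 8.95 in PKD_DMSO kidneys, 0.59 and 0.42 in WT_FP kidneys, and 0.33 and 0.13 in WT_DMSO kidneys. Both PKD_FP libraries lay below both PKD_DMSO libraries and above WT. Msr1 rose by 2.50 ± 0.34 in PKD_DMSO over WT_DMSO and by 1.40 ± 0.34 in PKD_FP over WT_FP (limma adjusted p = 0.00598 and 0.0415). Clec7a, the beta-glucan receptor dectin-1, had 1.86 and 5.33 FPKM in PKD_FP kidneys, 5.71 and 9.05 in PKD_DMSO kidneys, 0.94 and 0.76 in WT_FP kidneys, and 0.92 and 0.70 in WT_DMSO kidneys. The WT libraries were all near the same low level. Clec7a rose by 2.18 ± 0.39 in PKD_DMSO over WT_DMSO (limma adjusted p = 0.0124), against 1.20 ± 0.39 for PKD_FP over WT_FP (adjusted p = 0.0871). C5ar1, the receptor for the complement fragment C5a, rose by 2.34 ± 0.38 in PKD_DMSO over WT_DMSO and by 2.19 ± 0.38 in PKD_FP over WT_FP (limma adjusted p = 0.00986 and 0.0184). Siglec1, a sialic acid-binding receptor, had 0.25 and 0.45 FPKM in PKD_FP kidneys, 0.51 and 1.48 in PKD_DMSO kidneys, and at most 0.13 FPKM in any WT library, and it did not pass the low-value filter.

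Lyz2, lysozyme M of phagocytes, had 217 and 319 FPKM in PKD_FP kidneys, 254 and 468 in PKD_DMSO kidneys, 24.4 and 31.3 in WT_FP kidneys, and 18.4 and 9.5 in WT_DMSO kidneys. The lowest PKD library held several times the highest WT library. Lyz2 rose by 4.60 ± 0.40 in PKD_DMSO over WT_DMSO and by 3.20 ± 0.40 in PKD_FP over WT_FP (limma adjusted p = 0.00196 and 0.00871). Under vehicle this was the largest change among the 35 members on log2(FPKM + 1). In the ratio of mean FPKM, PKD_DMSO over WT_DMSO, Trem2 at 38.2 and Msr1 at 27.8 lay above Lyz2 at 25.9. The 50-base stretches of Lyz2 occur in the neighbouring paralog Lyz1 to 15.39%. Lyz1 itself lay at 37.7 to 81.9 FPKM in PKD libraries and 1.37 to 5.35 FPKM in WT libraries. Cd68, a lysosomal membrane glycoprotein, rose by 1.89 ± 0.38 in PKD_DMSO over WT_DMSO and by 1.98 ± 0.38 in PKD_FP over WT_FP (limma adjusted p = 0.0175 and 0.0223). Gpnmb, a glycoprotein of lysosome-loaded macrophages, had 0.43 and 0.63 FPKM in PKD_FP kidneys, 1.83 and 1.81 in PKD_DMSO kidneys, 0.07 and 0.18 in WT_FP kidneys, and 0.26 and 0.06 in WT_DMSO kidneys. It was low everywhere and reached 1 FPKM in the PKD_DMSO libraries alone, so it passed the filter through the group where it was highest and a difference from the other groups was partly built in. Gpnmb rose by 1.29 ± 0.21 in PKD_DMSO over WT_DMSO (limma adjusted p = 0.00897), and its log2 fold change was 0.44 ± 0.21 for PKD_FP over WT_FP (adjusted p = 0.195).

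The most abundant members, Apoe and Lgmn, are made by many cells, and Lgmn, the asparaginyl endopeptidase legumain, is plentiful in proximal tubule. Apoe, the lipid carrier apolipoprotein E, had 1505 and 1276 FPKM in PKD_FP kidneys, 1627 and 1904 in PKD_DMSO kidneys, 719 and 997 in WT_FP kidneys, and 988 and 814 in WT_DMSO kidneys. The genotypes did not overlap, though the difference was small beside that of other members. Apoe rose by 0.97 ± 0.22 in PKD_DMSO over WT_DMSO (limma adjusted p = 0.0249), while its log2 fold change of 0.71 ± 0.22 for PKD_FP over WT_FP did not pass (adjusted p = 0.0789). Lgmn had 268 and 175 FPKM in PKD_FP kidneys, 520 and 430 in PKD_DMSO kidneys, 295 and 106 in WT_FP kidneys, and 167 and 347 in WT_DMSO kidneys. Its replicates lay far apart in both WT groups, and the genotypes overlapped. The log2 fold change of Lgmn was 0.97 ± 0.54 for PKD_DMSO over WT_DMSO and 0.29 ± 0.54 for PKD_FP over WT_FP (limma adjusted p = 0.235 and 0.760).

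Of the phagocyte NADPH oxidase, which makes superoxide in the phagosome, all 3 members rose under vehicle. Cybb, the catalytic gp91phox chain, had 4.48 and 5.87 FPKM in PKD_FP kidneys, 6.19 and 14.0 in PKD_DMSO kidneys, 1.99 and 2.23 in WT_FP kidneys, and 2.30 and 1.79 in WT_DMSO kidneys. The genotypes were separated, and PKD_DMSO replicate 2 again held the most. Cybb rose by 1.77 ± 0.34 in PKD_DMSO over WT_DMSO (limma adjusted p = 0.0158), against 0.98 ± 0.34 for PKD_FP over WT_FP (adjusted p = 0.106). The cytosolic subunits Ncf1 and Ncf4 rose by 1.81 ± 0.36 and 1.64 ± 0.29 in PKD_DMSO over WT_DMSO (limma adjusted p = 0.0173 and 0.0120). Ncf4 passed the filter only with the help of a PKD library, so its rise was partly built in. The oxidase gene Cyba, which is no member, went the other way without being called, as given below.

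Among genes of all leukocytes, 4 of 5 rose under vehicle and 4 of 5 under FP. Laptm5, a lysosomal membrane protein of blood cells, rose by 2.58 ± 0.29 in PKD_DMSO over WT_DMSO, and the tetraspanin Cd53 by 1.91 ± 0.40 (limma adjusted p = 0.00383 and 0.0202). The actin regulators Coro1a and Lcp1 rose by 1.49 ± 0.25 and 1.22 ± 0.28 (limma adjusted p = 0.0109 and 0.0260). Coro1a had 30.0 and 32.4 FPKM in PKD_FP kidneys, 19.4 and 34.2 in PKD_DMSO kidneys, 5.86 and 5.65 in WT_FP kidneys, and 9.14 and 7.95 in WT_DMSO kidneys. Its WT_FP libraries were both below its WT_DMSO libraries, and all WT libraries were below PKD. Ptprc, the phosphatase CD45 carried by every leukocyte, had 3.25 and 5.53 FPKM in PKD_FP kidneys, 3.22 and 6.34 in PKD_DMSO kidneys, 1.84 and 1.92 in WT_FP kidneys, and 1.88 and 1.69 in WT_DMSO kidneys. The WT libraries were nearly equal and the PKD replicates differed by 1.7 times in PKD_FP and 1.97 times in PKD_DMSO. The log2 fold change of Ptprc was 1.0 ± 0.32 for PKD_DMSO over WT_DMSO and 0.87 ± 0.32 for PKD_FP over WT_FP (limma adjusted p = 0.0638 and 0.116).

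Spi1 had 18.0 and 17.6 FPKM in PKD_FP kidneys, 9.54 and 18.4 in PKD_DMSO kidneys, 4.05 and 4.31 in WT_FP kidneys, and 3.8 and 2.51 in WT_DMSO kidneys. PKD_DMSO replicate 1 was the lowest PKD library and still above every WT library. Spi1 rose by 1.80 ± 0.30 in PKD_DMSO over WT_DMSO and by 1.86 ± 0.30 in PKD_FP over WT_FP (limma adjusted p = 0.0103 and 0.0154). Irf8, the interferon regulatory factor of monocytes and dendritic cells, had 13.7 and 11.4 FPKM in PKD_FP kidneys, 8.59 and 14.8 in PKD_DMSO kidneys, 7.55 and 6.69 in WT_FP kidneys, and 7.6 and 5.1 in WT_DMSO kidneys. The lower PKD_DMSO value lay close to WT. The log2 fold change of Irf8 was the smallest of the 35 under vehicle, 0.76 ± 0.28, and 0.74 ± 0.28 for PKD_FP over WT_FP (limma adjusted p = 0.0951 and 0.130).

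Under FP, 22 of 35 members rose in PKD_FP relative to WT_FP kidneys and 0 fell, while 8.71% of all genes tested rose and 5.23% fell. At an unadjusted p under 0.05 these counts were 30 and 0, against 18.9% and 12.5% of all genes. Both PKD_FP libraries lay above both WT_FP libraries in 35 of 36 members (34.6% of all genes) and below them in 0 (25.2%). The members' median log2 fold change was 1.68 and that of all genes 0.07. Among the 25 members that passed the filter on WT libraries alone, 16 rose, a count with no matching share of all genes. Trem2, Lyz2, Fcgr3 and Fcer1g changed most in this comparison. The 2 genotype comparisons share no library. Both, however, take the standard error of a gene from the same fit of all libraries, so their calls are not independent. Of the members, 21 were called in both, Aif1 under FP alone, and Fcgr2b, Ptprc, Lgmn and Irf8 in neither. The share of all genes called in both was not formed, so that count describes the members alone.

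The counts leaned on single libraries, for all genes tested as well as for the members. In each of the fits named next, fewer of all genes were called too. The counts of members in those fits have no share of all genes beside them, so they describe the members alone. Without PKD_DMSO replicate 2 the members' median log2 fold change under vehicle was 1.65 and that of all genes 0.10. Without PKD_FP replicate 2 the medians under FP were 1.43 and 0.02. Without PKD_DMSO replicate 2, 11 members were called under vehicle, without WT_DMSO replicate 2, 16, and without WT_DMSO replicate 1, 24. Adgre1, Lyz2, Fcgr3, Trem2, Cd14, Mrc1, Msr1, Laptm5, Il34 and Csf1 were the 10 called under vehicle whichever of the 8 libraries was left out. Under FP the counts were 3 without PKD_FP replicate 2, 5 without PKD_FP replicate 1, 4 without WT_FP replicate 1 and 12 without WT_FP replicate 2, the library with high adipocyte markers. Fcgr3, Trem2 and Il34 were called under FP in all 8 of those fits. Of the genes named here, Adgre1, Trem2 and Msr1 had passed the filter only with the help of a PKD library. The filter was not redone when a library was left out, so that limit stayed. Scaling by median of ratios moved the all-gene median under vehicle to -0.01, the members' median to 1.90, and left 30 members called.

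**Figure D3:**
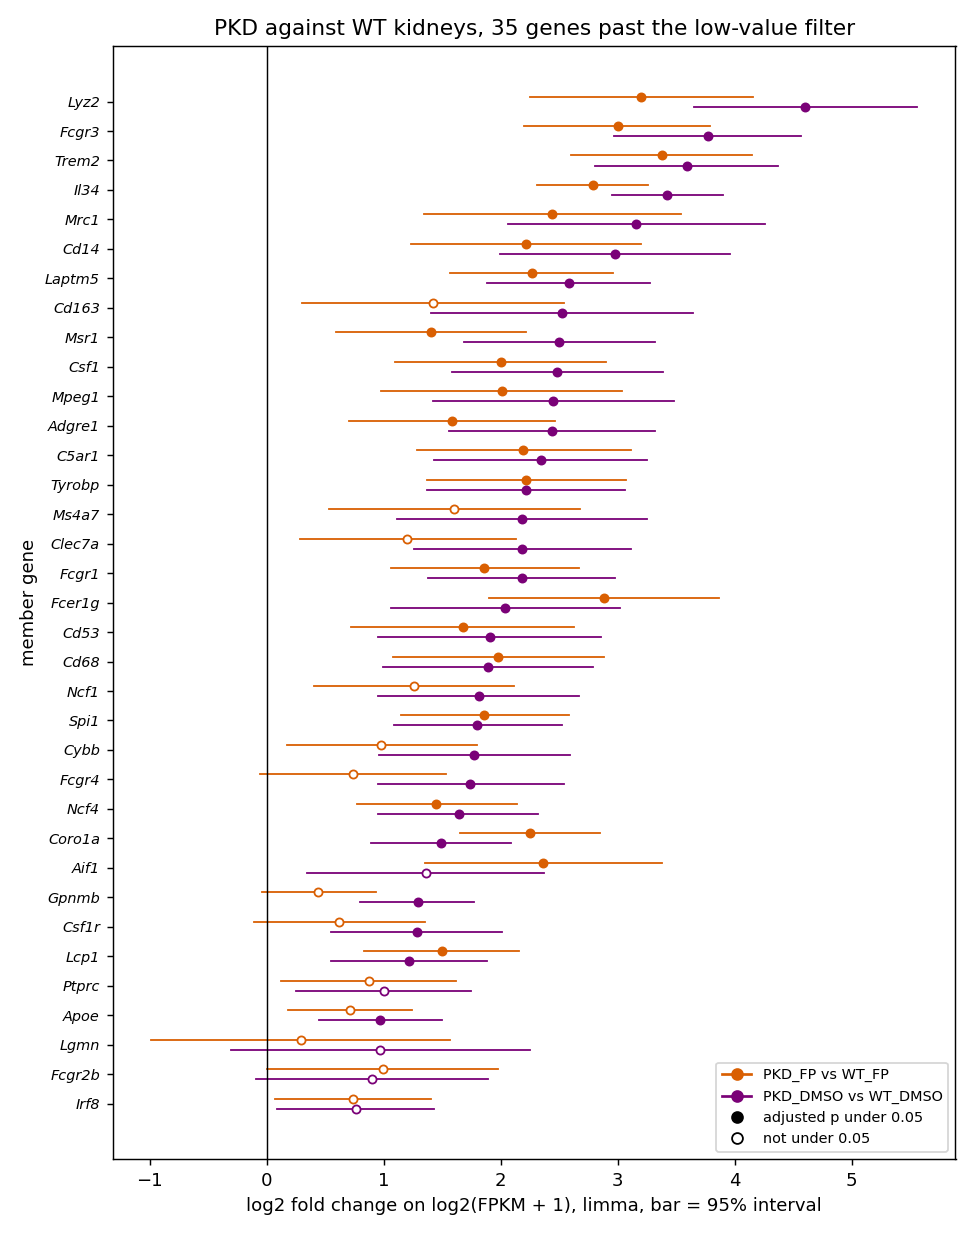
Log2 fold change on log2(FPKM + 1) with its 95% interval for the 35 members past the low-value filter, PKD_FP over WT_FP in orange above PKD_DMSO over WT_DMSO in purple, filled where the limma adjusted p was under 0.05. Every estimate lies above 0, from 0.29 for Lgmn under FP to 4.60 for Lyz2 under vehicle.

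FP gave no called change in the myeloid genes of either genotype. In PKD_FP over PKD_DMSO kidneys 0 of 35 members were called in either direction by limma, and of all genes tested 0.00695% were called higher and 0.00695% lower. At an unadjusted p under 0.05, 3 members were lower and 0 higher, against 9.14% of all genes lower and 10.3% higher. The members' median log2 fold change was -0.33 and that of all genes 0.04, and 10 of 35 members were positive against 54% of all genes. That median was -0.02 without PKD_DMSO replicate 2, -0.04 without PKD_FP replicate 1, -0.67 without PKD_DMSO replicate 1 and -0.56 without PKD_FP replicate 2. In 9 members both PKD_FP libraries lay below both PKD_DMSO libraries (25.2% of all genes), and in 2, Fcer1g and Aif1, both lay above (31.4%). The members' 95% intervals were wide, 20 of 35 reaching a 2-fold lower level and 7 a 2-fold higher level on the log2(FPKM + 1) scale, so changes of that size are not excluded by these libraries.

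The smallest p among members for PKD_FP over PKD_DMSO belonged to Fcgr4, at -1.66 ± 0.33 on the log2 scale (limma adjusted p = 0.124). Both PKD_FP libraries lay far below both PKD_DMSO libraries, at 1.62 and 2.07 FPKM in PKD_FP against 6.72 and 9.42 FPKM in PKD_DMSO. Gpnmb, which passed the filter through PKD_DMSO alone, followed with -0.89 ± 0.21 and Clec7a with -0.95 ± 0.39 (limma adjusted p = 0.125 and 0.247). For Clec7a the higher PKD_FP value, 5.33 FPKM, was close to the lower PKD_DMSO value, 5.71 FPKM. None of the 3 passed the threshold over all genes.

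In WT_FP over WT_DMSO kidneys 0 of 35 members were called by limma, as were 0% of all genes in each direction. At an unadjusted p under 0.05, 1 member was higher and 0 lower, against 0.91% and 0.361% of all genes. The member was Lyz2, at 24.4 and 31.3 FPKM in WT_FP and 18.4 and 9.5 FPKM in WT_DMSO kidneys, a difference of 1.01 ± 0.40 on the log2 scale (limma adjusted p = 1). Fcgr4 came next at -0.66 ± 0.33 and Coro1a at -0.50 ± 0.25, both with an adjusted p of 1 by limma. In 7 members both WT_FP libraries lay above both WT_DMSO libraries (16.6% of all genes), and in 3 below them (5.32%). The members' median was 0.05 and that of all genes 0.09. The intervals of 8 members reached a 2-fold lower level and those of 12 a 2-fold higher level.

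The difference between the FP effects in PKD and WT kidneys was called for 0 of 35 members and 0% of all genes in each direction by limma, and at an unadjusted p under 0.05 for 0 members higher and 2 lower, against 4.45% and 6.78% of all genes. Those were Gpnmb, with the same limit from the filter and an interaction of -0.84 ± 0.29, and Lyz2, with -1.40 ± 0.57, followed by Msr1 with -1.10 ± 0.48 (limma adjusted p = 0.410, 0.440 and 0.466). The difference in the number of members called under vehicle and under FP is therefore not backed by a called interaction for any member.

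The PKD_DMSO replicates differed across the myeloid genes together. Replicate 2 was higher in 30 of 36 members, with a median difference of 0.79 on log2(FPKM + 1) and a range of -0.58 to 1.26. Over all genes tested replicate 2 was higher in 50.6%, with a median difference of 0.00. In FPKM the median ratio of replicate 2 to replicate 1 was 1.8, and 26 of 36 members were at least 1.5 times as high in replicate 2, against 10.2% of all genes. On log2(FPKM + 1) Mrc1 differed most, at 9.90 and 25.2 FPKM in replicates 1 and 2, followed by Adgre1 at 5.83 and 14.3 and Cd163 at 4.21 and 10.48. At the other end were Csf1, at 27.7 and 18.2 FPKM, Lgmn, at 520 and 430, and Cd14, at 54.1 and 45.1. Il34, Aif1 and Gpnmb were the remaining members that did not exceed replicate 1 in replicate 2.

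How this spread compared with the distance to WT depended on the scale. In 28 of 36 the lower PKD_DMSO library held at least 2 times the higher WT_DMSO library. On log2(FPKM + 1) the gap between the PKD_DMSO replicates was wider than the distance from the lower of them to the higher WT_DMSO library in 6 of 36 members, Csf1r, Fcgr2b, Ptprc, Siglec1, Irf8 and Lcp1. In FPKM itself the gap was the wider in 22 of 36. These counts were not set beside shares of all genes, so they describe the members alone. A gap of at least 0.5 between the PKD_DMSO replicates on log2(FPKM + 1) was found in 27 of 36 members and in 14% of all genes. PKD_DMSO replicate 2 was the highest of the 4 PKD libraries for 27 members, against 26.7% of all genes. PKD_FP replicate 1 was the lowest for 19, a count with no share of all genes beside it. PKD_FP replicate 2 was higher than PKD_FP replicate 1 in 30 of 36 members as well, by a median of 0.33, while 58% of all genes were higher there, by a median of 0.07. In WT_FP the members were higher in replicate 2 in 22 of 36 (64.6% of all genes) and in WT_DMSO in 4 of 36 (33.4% of all genes). As a median over the 36 genes, relative to the WT_DMSO mean, the libraries stood at 1.42 and 2.03 in PKD_FP, 1.63 and 2.32 in PKD_DMSO, 0.04 and 0.10 in WT_FP, and 0.17 and -0.17 in WT_DMSO, on the log2(FPKM + 1) scale.

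**Figure D4:**
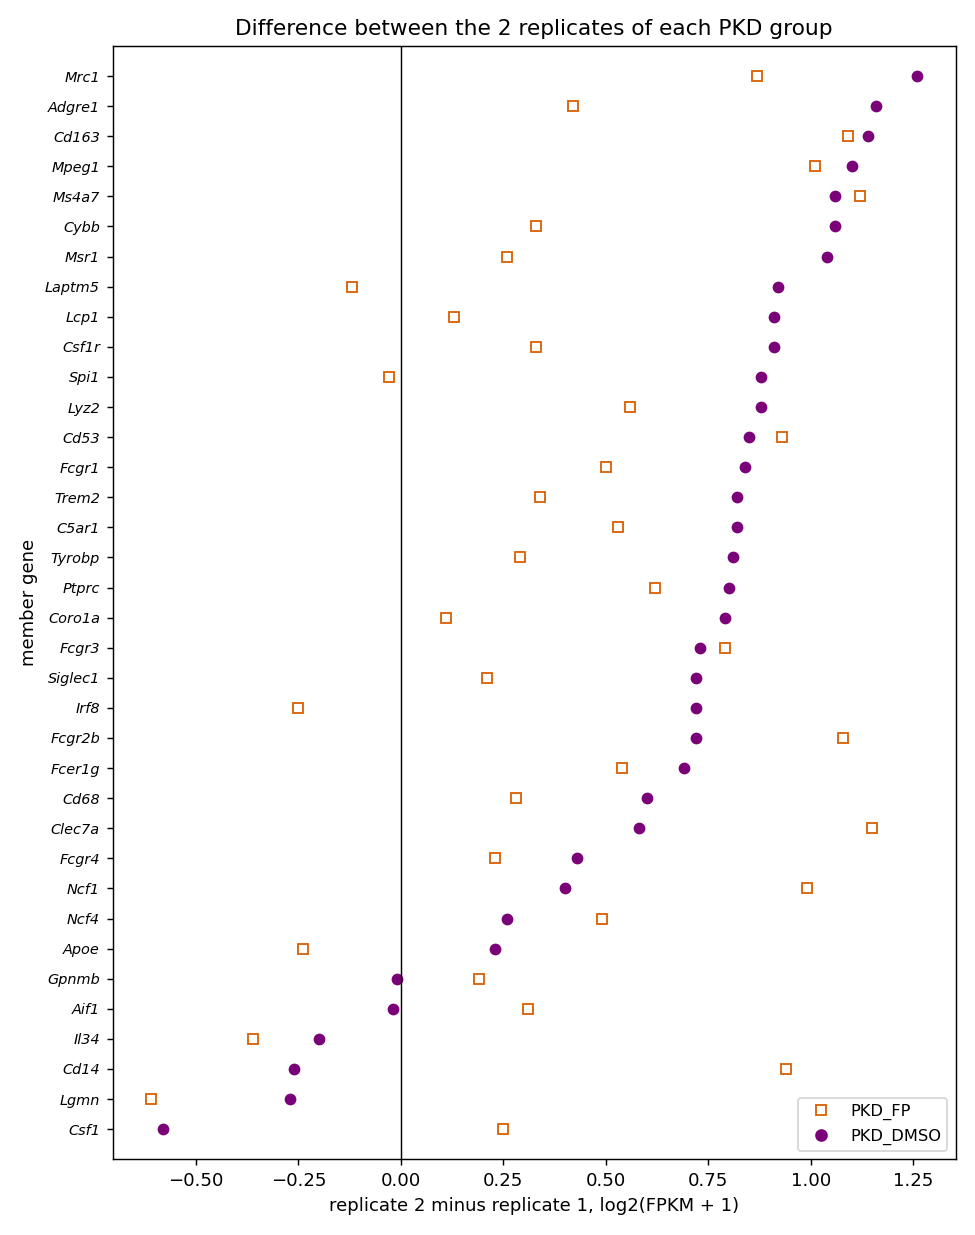
Replicate 2 minus replicate 1 on log2(FPKM + 1) for each of the 36 genes, with open squares for PKD_FP and filled circles for PKD_DMSO, ordered by the PKD_DMSO difference. In PKD_DMSO 30 genes lie right of 0, from Mrc1 at 1.26 down to Csf1 at -0.58, and in PKD_FP 30 genes lie right of 0 as well.

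Markers of other cells moved with this difference. In PKD_DMSO all 10 endothelial markers and all 9 fibroblast markers were higher in replicate 2, while 1 of 10 proximal tubule markers was. The summed endothelial level was 117 FPKM in PKD_DMSO replicate 1 and 347 FPKM in replicate 2, and 304 to 631 FPKM in all other libraries, so that replicate 1 stood apart. Plvap, an endothelial diaphragm protein, was at 26.5 and 111 FPKM in those replicates. The summed fibroblast level was 661 and 1327 FPKM in PKD_DMSO replicates 1 and 2. Neutrophil markers went the other way, with 3 of 12 higher in replicate 2 and a summed level of 153 FPKM in replicate 1 and 12.3 FPKM in replicate 2. Ltf, lactoferrin of neutrophil granules, was at 86.1 and 0.58 FPKM, and S100a8 at 21.2 and 2.26 FPKM. The part of these markers in the difference between the replicates was not tested.

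Lists of further macrophage genes were described in the same way, beside the same background shares of all genes. These lists too were chosen with earlier results of these data known. Of 25 other macrophage and monocyte genes, 24 passed the filter, 18 rose and 0 fell in PKD_DMSO over WT_DMSO, with a median log2 fold change of 1.70, and 23 of 25 were higher in PKD_DMSO replicate 2. Fcrls, Ms4a6d, the cathepsin Ctss and the complement chain C1qc rose most, by 3.51 ± 0.38, 3.5 ± 0.41, 3.44 ± 0.50 and 2.99 ± 0.44. Ctss had 34.4 and 80.0 FPKM in PKD_FP kidneys, 57.3 and 133 in PKD_DMSO kidneys, 8.71 and 7.0 in WT_FP kidneys, and 8.90 and 5.73 in WT_DMSO kidneys. Of 16 genes that relay ITAM signals or assemble the oxidase, 9 rose and 0 fell under vehicle, with a median of 0.97. Cyba, the most abundant of them, went the other way without being called. It had 421 and 304 FPKM in PKD_DMSO kidneys and 526 and 785 in WT_DMSO kidneys. Its log2 fold change was -0.84 ± 0.38 (limma adjusted p = 0.153). The adaptor Fyb rose by 1.55 ± 0.30 and the exchange factor Vav1 by 1.22 ± 0.31. Under FP 14 of 24 and 4 of 16 genes of these lists rose in PKD_FP over WT_FP. Some genes passed the filter only with the help of a PKD library. Of the 19 other macrophage and monocyte genes that passed on WT libraries alone 13 rose under vehicle and 11 under FP, and of 11 such ITAM and oxidase genes 5 and 2 rose.

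Genes linked to alternative activation or residence rose in 5 of the 8 that passed the filter under vehicle. The coagulation factor chain F13a1 rose by 3.5 ± 0.40, arginase Arg1 by 2.94 ± 0.37 and the chemokine Ccl8 by 2.90 ± 0.43, besides Chil3 and Lyve1. All 5 passed the filter only with the help of a PKD library, so their higher values were partly built in. Of the 3 that passed on WT libraries alone 0 were called. Folr2, among those 3, had -0.68 ± 0.64 under vehicle and -0.85 ± 0.64 in PKD_FP over WT_FP (limma adjusted p = 0.471 and 0.407). Cd209f, Timd4 and Il10 stayed under 1 FPKM in every library, and Retnla reached at most 0.22 FPKM in PKD libraries. Of inflammatory macrophage genes 7 of 12 passed the filter and 2 rose, Tnf by 1.20 ± 0.32 and Nlrp3 by 1.02 ± 0.25. None of these 7 passed on WT libraries alone. Il1b, the precursor of interleukin-1 beta, had 1.11 and 5.93 FPKM in PKD_FP kidneys, 14.98 and 2.21 in PKD_DMSO kidneys, 0.10 and 0.16 in WT_FP kidneys, and 0.37 and 0.09 in WT_DMSO kidneys. All PKD libraries were above WT, yet the PKD_DMSO replicates were far apart and the log2 fold change of 2.55 ± 0.80 did not pass (limma adjusted p = 0.0634). Only 2 of the 12 inflammatory genes were higher in PKD_DMSO replicate 2, the reverse of the member genes, and their summed level was 42.3 FPKM in replicate 1 and 10 FPKM in replicate 2. Of 12 genes of lipid-associated macrophages 5 rose and 1 fell under vehicle. Spp1, which encodes osteopontin and is also made by tubule cells, rose by 3.0 ± 0.22, Lgals3 by 2.05 ± 0.23 and the cathepsin Ctsd by 1.98 ± 0.30, with Mmp12 and Plin2, while lipoprotein lipase (Lpl) fell by 1.61 ± 0.32 on the log2 scale. Of the 11 that passed on WT libraries alone 4 rose and 1 fell.

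Lists for other blood cells gave few calls beside the myeloid set, which does not mean that their levels were equal. The neutrophil list had a median log2 fold change of 1.03 under vehicle with a wide spread. S100a8 lay between 2.26 and 30.7 FPKM in PKD libraries and at most at 1.36 in WT libraries. Its estimate was 2.18 ± 1.03 (limma adjusted p = 0.171), while those of Cxcr2 and Ly6g were -0.87 ± 0.58 and -0.36 ± 0.43. Under vehicle 0 of 7 neutrophil, 0 of 7 T and NK cell and 0 of 4 B and plasma cell markers past the filter were called by limma (1, 1 and 0 of them, all higher, at an unadjusted p under 0.05), and 1 of 7 dendritic cell markers, Itgax, rose by 1.13 ± 0.28 (limma adjusted p = 0.0329). Under FP 4 of the 7 T and NK cell markers rose in PKD_FP over WT_FP, Cd3g by 1.65, Cd4 by 1.34, Lck by 1.15 and Cd3d by 0.98, and 1 of 4 B cell markers, Blk, by 1.04 (limma adjusted p from 0.0102 to 0.0299). Lck alone of these passed the filter on WT libraries, so the counts for both lists were partly built in, as was that of Itgax, which also needed a PKD library. The difference of these genotype effects between FP and vehicle was called for 0 of the 7 T and NK cell and 0 of the 4 B cell markers by limma, with 3 and 1 at an unadjusted p under 0.05. The B cell markers Cd79a, Ms4a1 and Pax5 and the granule markers Mpo, Elane, Ngp, Camp and Mmp8 stayed under 1 FPKM in every library. Fcgr2b, Ptprc, Irf8, Coro1a, Lcp1 and Cd53 are also expressed by lymphocytes, and the part of lymphocytes in their values was not tested. The fibroblast list had 4 of 9 markers higher and the proximal tubule list 5 of 10 lower in PKD_DMSO than in WT_DMSO kidneys. In that comparison the adipocyte list had a median log2 fold change of 2.14, with 0 of its 9 markers past the filter called. Of those 9 markers 4 passed on WT libraries alone. How far such shifts in tissue make-up move the member genes was not tested.

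**Figure D5:**
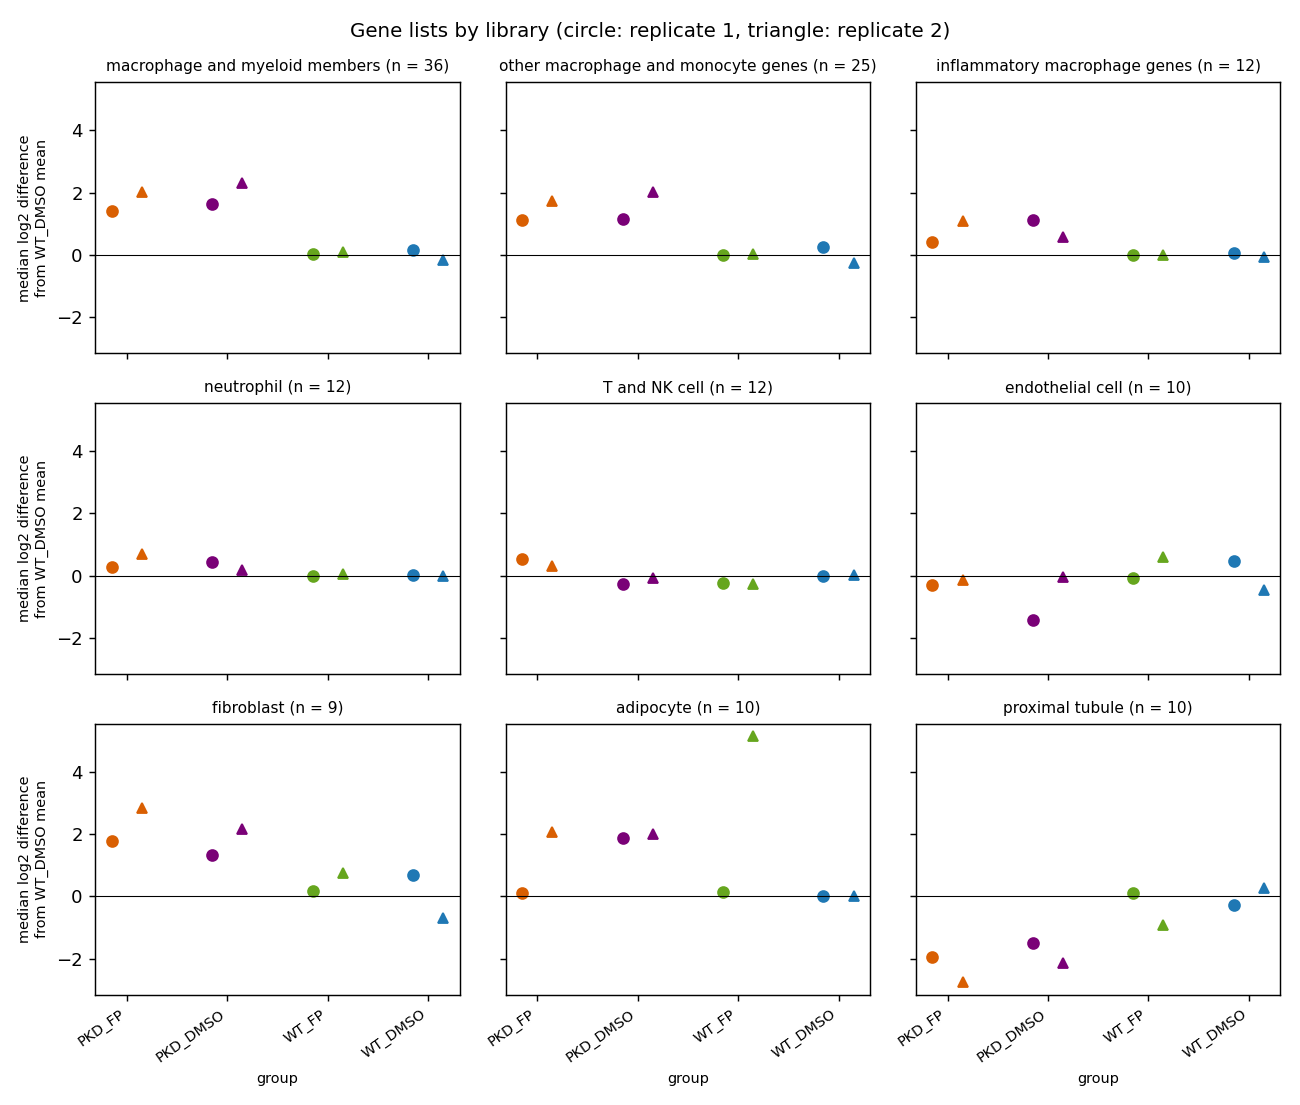
Median over each gene list of log2(FPKM + 1) minus the WT_DMSO mean, by library, with circles for replicate 1 and triangles for replicate 2 and groups ordered PKD_FP, PKD_DMSO, WT_FP and WT_DMSO. The myeloid members stand at 1.42 to 2.32 in PKD libraries and -0.17 to 0.17 in WT libraries, and the endothelial list has its lowest value, -1.41, in PKD_DMSO replicate 1.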

How the data were processed

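The authors deposited 1 table of values per library. Per the labels' protocols, total RNA of whole kidney was extracted with TRIzol, selected with oligo(dT) and made into libraries by BGI. Per the submitters' processing notes, Bowtie2, DESeq2 and mm10 were used, with no version or role given. The deposited values were taken as FPKM: the headers name no unit, and this was inferred from the values. The notes used here do not say whether counting was strand-specific or how shared reads were assigned. Values were put on a log2(FPKM + 1) scale without further scaling, and a gene had to reach 1 FPKM in 2 or more libraries. With limma 3.58.1 (R 4.3.3) a linear model with 4 group means was fitted to the 8 libraries together, with trended and robust empirical Bayes moderation, leaving 4 residual degrees of freedom. P-values were adjusted by Benjamini-Hochberg over all 14391 genes, threshold 0.05. With 2 libraries per group an exact two-sided permutation test cannot go below 0.33, so none was used. The fit was tested on simulated data.

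The members and lists were chosen with earlier results of these data known. Values in every library are given for members with the 4 largest and 4 smallest fold changes under vehicle, the 3 largest and 3 smallest differences between the PKD_DMSO replicates, the 3 smallest p-values in each drug comparison and the interaction, and a fixed set of 16. Other genes were named from the lists, up to 4 each by size of change, and some that the rule names are not reported here. Aif1, Siglec1, Nlrp3, Chil3, Lyve1, Plin2, Lpl, Cd3g, Cd3d, Blk, Lyz1 and Hmgxb3, and the promoters shown, were chosen after their values were seen. So were Cyba, Folr2, Retnla, Cd209f, Timd4, Il10, Cxcr2 and Ly6g. Entries with repeated symbols (4 entries, 2 symbols) and 1 entry named by a dash were dropped. Shared 50-base stretches were counted over GENCODE M21 transcripts. Alternatives were no filter, a filter of 5 FPKM, a pseudocount of 0.1, median-of-ratios scaling, quantile normalization, a block for the replicate number, a fit of the compared groups alone, and each library left out.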

Additional observations from a re-analysis of the deposited data

How the results depend on the processing

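In PKD_FP over PKD_DMSO, WT_FP over WT_DMSO and the interaction 0 members were called by limma in any setting tried. Leaving out a library moved the number of members called higher in PKD_DMSO over WT_DMSO between 11 (without PKD_DMSO replicate 2) and 30, with 16 without WT_DMSO replicate 2, and in PKD_FP over WT_FP between 3 (without PKD_FP replicate 2) and 23, with 4, 5 and 12 without WT_FP replicate 1, PKD_FP replicate 1 and WT_FP replicate 2. In such fits the lone library is assumed to vary like the other groups, and in those named here fewer of all genes were called as well. The other settings gave 27 to 31 and 18 to 23 calls. The median log2 fold change of members in those comparisons was 2.49 and 2.22 with a pseudocount of 0.1, and 1.86 in PKD_FP over WT_FP with the filter of 5 FPKM. Leaving out a library moved the PKD_FP over WT_FP median between 1.43 and 2.11, that of PKD_FP over PKD_DMSO between -0.67 and -0.02, that of WT_FP over WT_DMSO between -0.09 and 0.29 and that of the interaction between -0.63 and -0.05. Lgmn, at 0.29 in PKD_FP over WT_FP, ranged from -0.45 (without WT_FP replicate 2) to 1.02 with a library left out, and was at -0.02 without PKD_FP replicate 1. The cause of these shifts was not tested beyond the loss of a library.

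The labels give the groups the same replicate numbers but do not say that a number marks a shared animal, litter or day. The correlation of replicate differences between groups ranged from -0.52 to 0.48 over the 6 pairs of groups, so the numbers were not taken as pairs. With the number as a replicate block, 30 members were called in PKD_DMSO over WT_DMSO and 18 in PKD_FP over WT_FP. Median-of-ratios scaling and quantile normalization moved the split of all genes called under vehicle to 1544 higher and 1327 lower and to 1720 and 1528, from 2130 and 1082. Read depth is unknown, and with 2 libraries per group the members' intervals in PKD_FP over PKD_DMSO and WT_FP over WT_DMSO reach 2-fold changes.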
